A study of Mus musculus with 12 samples.

Results

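The genes described here are the 10 enzymes of purine and pyrimidine synthesis with the symbols Cad, Umps, Ppat, Gart, Paics, Pfas, Atic, Impdh1, Impdh2 and Ctps. They were chosen by symbol for their place in the pathway, with earlier results of these data known. Counts of members set beside shares of all genes are therefore a description. All 10 were found among the 24502 genes of the deposited table and passed the filter on low counts. RNA was sequenced from sorted mouse regulatory T cells (labelled Treg) of 11-week-old mice of 2 genotypes. The 4 groups, of 3 libraries each, were Foxp3CreGpx4fl/fl cells held for 4 h on plates coated with anti-CD3 and anti-CD28 (5 µg/ml), WT cells stimulated the same way, unstimulated Foxp3CreGpx4fl/fl cells and unstimulated WT cells. Foxp3CreGpx4fl/fl cells, called Gpx4-deficient here, lose loxP-flanked Gpx4 through a Cre recombinase driven by Foxp3, the gene that defines this lineage. The labels call the controls only WT and mention no Cre in them. They give no culture time for unstimulated cells, so stimulation and time in culture cannot be told apart. They also do not say that the libraries of a group came from separate mice, so each p-value speaks only to variation among these libraries, part or all of which could be technical.

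Nucleotides are either built from small precursors (de novo synthesis) or recovered from free bases and nucleosides (salvage). In the pyrimidine branch CAD carries out the opening steps, the mitochondrial enzyme DHODH oxidises dihydroorotate, UMPS completes UMP, and CTP synthase (Ctps) converts UTP to CTP. In the purine branch PPAT commits phosphoribosyl pyrophosphate to the pathway, GART, PFAS, PAICS and ATIC build IMP, and the IMP dehydrogenases IMPDH1 and IMPDH2 send IMP towards GTP. T cells that have been activated through their antigen receptor raise de novo synthesis before they divide, and the transcription factor MYC is a known activator of many of these genes.

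The promoters of 6 of the enzymes are shown because the results turn on them. Cad is the member called between the stimulated genotypes, Ctps, Umps and Impdh2 are called after stimulation, and Paics and Ppat start head to head. Each window runs 5′ to 3′ on the strand of the gene from 250 bases before to 50 bases after a RefSeq start (GRCm38.p6), and 9 of the 10 members have such a window. Capitals mark matches, on either strand, to the E-box CACGTG that MYC binds, to the cyclic AMP response element TGACGTCA, to the ATF4 element TGATGCAAT or to the NRF1 element (GCGCA and GCGC with any base between them).
Cad, chr5:31054530-31054829, plus strand: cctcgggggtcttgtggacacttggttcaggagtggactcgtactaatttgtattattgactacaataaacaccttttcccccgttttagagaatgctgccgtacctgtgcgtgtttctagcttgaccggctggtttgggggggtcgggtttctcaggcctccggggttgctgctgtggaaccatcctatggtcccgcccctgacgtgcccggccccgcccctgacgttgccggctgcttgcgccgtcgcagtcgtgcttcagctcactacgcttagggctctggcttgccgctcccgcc
Umps, chr16:33966989-33967288, minus strand: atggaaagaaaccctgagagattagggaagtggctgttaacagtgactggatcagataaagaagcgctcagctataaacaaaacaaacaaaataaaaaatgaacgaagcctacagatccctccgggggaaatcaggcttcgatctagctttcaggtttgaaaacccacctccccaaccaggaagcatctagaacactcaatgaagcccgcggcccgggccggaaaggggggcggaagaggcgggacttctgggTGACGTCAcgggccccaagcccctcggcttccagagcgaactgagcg
Ctps, chr4:120570227-120570526, minus strand: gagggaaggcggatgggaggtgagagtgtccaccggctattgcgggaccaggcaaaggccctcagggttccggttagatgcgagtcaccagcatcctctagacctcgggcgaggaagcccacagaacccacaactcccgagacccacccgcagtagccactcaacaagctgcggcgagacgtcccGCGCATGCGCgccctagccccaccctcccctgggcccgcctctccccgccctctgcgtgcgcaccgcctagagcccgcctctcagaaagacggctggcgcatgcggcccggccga
Impdh2, chr9:108560186-108560485, plus strand: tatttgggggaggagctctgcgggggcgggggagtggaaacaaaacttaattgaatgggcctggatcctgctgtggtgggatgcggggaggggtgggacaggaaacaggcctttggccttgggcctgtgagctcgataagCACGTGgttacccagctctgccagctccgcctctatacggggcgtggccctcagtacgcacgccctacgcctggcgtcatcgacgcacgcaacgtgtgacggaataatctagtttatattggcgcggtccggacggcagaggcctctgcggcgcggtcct
Paics, chr5:76951052-76951351, plus strand: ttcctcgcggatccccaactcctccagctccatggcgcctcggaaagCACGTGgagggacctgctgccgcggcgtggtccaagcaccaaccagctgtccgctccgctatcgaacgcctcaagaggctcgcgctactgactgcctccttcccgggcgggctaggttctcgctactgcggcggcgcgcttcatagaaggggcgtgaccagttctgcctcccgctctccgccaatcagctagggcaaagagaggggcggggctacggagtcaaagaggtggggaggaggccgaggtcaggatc
Ppat, chr5:76951529-76951828, minus strand: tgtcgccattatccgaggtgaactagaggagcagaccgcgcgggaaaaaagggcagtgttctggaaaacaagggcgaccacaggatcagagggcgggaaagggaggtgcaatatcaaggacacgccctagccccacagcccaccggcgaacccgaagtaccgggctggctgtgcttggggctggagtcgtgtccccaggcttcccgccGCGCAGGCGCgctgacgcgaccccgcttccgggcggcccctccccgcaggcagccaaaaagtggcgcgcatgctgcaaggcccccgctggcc
The E-box was found in the windows of Paics, Impdh2 and Atic, starting 203, 110 and 7 bases before the RefSeq start, and in 7.15% of all 32851 windows of this length. GENCODE annotates an earlier start for Impdh2 (108560286), and the Impdh2 E-box lies after that start. The cyclic AMP element lies just after the Umps start (1.79% of all windows), and the NRF1 element lies before the Ctps and Ppat starts shown (4.6%). Ctps has another RefSeq window, not shown (chr4:120569410-120569709), which held none of the 4 motifs. The ATF4 element was in no member's window (0.192%). The windows of Cad, Gart and Impdh1 held none of the 4 motifs, which says only that these letters are not there.

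Library totals ran from 24629230 to 31879267 expected counts, and the members had between 284 counts (Pfas) and 6740 counts (Umps) in a library. Gpx4 itself was at 7.03 ± 3.22 CPM in stimulated Gpx4-deficient and 86.5 ± 19.4 CPM in stimulated WT libraries, and at 8.20 ± 3.77 CPM in unstimulated Gpx4-deficient and 153.7 ± 16.2 CPM in unstimulated WT libraries (SD, n = 3 each; CPM are counts scaled to the TMM-adjusted library size). The regulatory T cell markers Cd3e, Cd4, Foxp3, Il2ra, Ctla4 and Ikzf2 were present in all 4 groups, with Foxp3 at 63.9 ± 14.5 CPM in stimulated Gpx4-deficient and 37.7 ± 5.16 CPM in stimulated WT libraries. The stimulated Gpx4-deficient libraries stood apart from the rest: their replicates correlated at 0.795 to 0.82 across genes, against 0.89 to 0.91 in stimulated WT libraries, and mitochondrially encoded transcripts took 2.84% to 3.72% of their counts, against 1.18% to 1.37%. Library numbers form 1 block per genotype, and a batch of library preparation, if there was one, cannot be told apart from genotype. Because cells were measured in bulk, fewer cells expressing a gene and less RNA per cell cannot be told apart.

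Stimulation raised 1 of the 10 enzymes in Gpx4-deficient cells and 4 in WT cells, and with stimulation 1 enzyme was lower in Gpx4-deficient than in WT cells. A gene was called at a Benjamini-Hochberg adjusted p under 0.05 in edgeR's quasi-likelihood test over 14827 genes. In Gpx4-deficient cells 1 member, Ctps, rose with stimulation and 0 fell, where 7.45% of all tested genes rose and 7.83% fell. In WT cells Ctps, Umps, Impdh2 and Cad rose and 0 fell, where 6.12% of all tested genes rose and 5.41% fell. The members' median log2 fold change with stimulation was 0.11 in Gpx4-deficient and 0.80 in WT cells, against -0.02 and -0.04 over all tested genes in Gpx4-deficient and WT cells. The enzyme that was lower in stimulated Gpx4-deficient cells was Cad, where 1.25% of all tested genes were lower and 1.03% higher (2.27% in all). All 10 members had negative log2 fold changes there (median -0.48, against 0.00 over all tested genes). Without stimulation 0 members were called, where 0.0674% of all tested genes were (0.054% higher, 0.0135% lower), with 1 member, Ctps, at an unadjusted p under 0.05 and a median of -0.16. DESeq2 called 1 member there, Ctps, and limma-voom 0. The direct test of the difference between the 2 stimulation responses called 0 members by edgeR (0.202% of all genes), with Cad alone at an unadjusted p under 0.05. By limma-voom it called 0 members, and by DESeq2 it called Cad. DESeq2 called more of all genes than edgeR in every comparison. Its calls of members, here and below, are to be read beside those counts, which stand near the end of the report. The comparisons share libraries, so their values are given side by side and are not independent of each other.

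**Figure D1:**
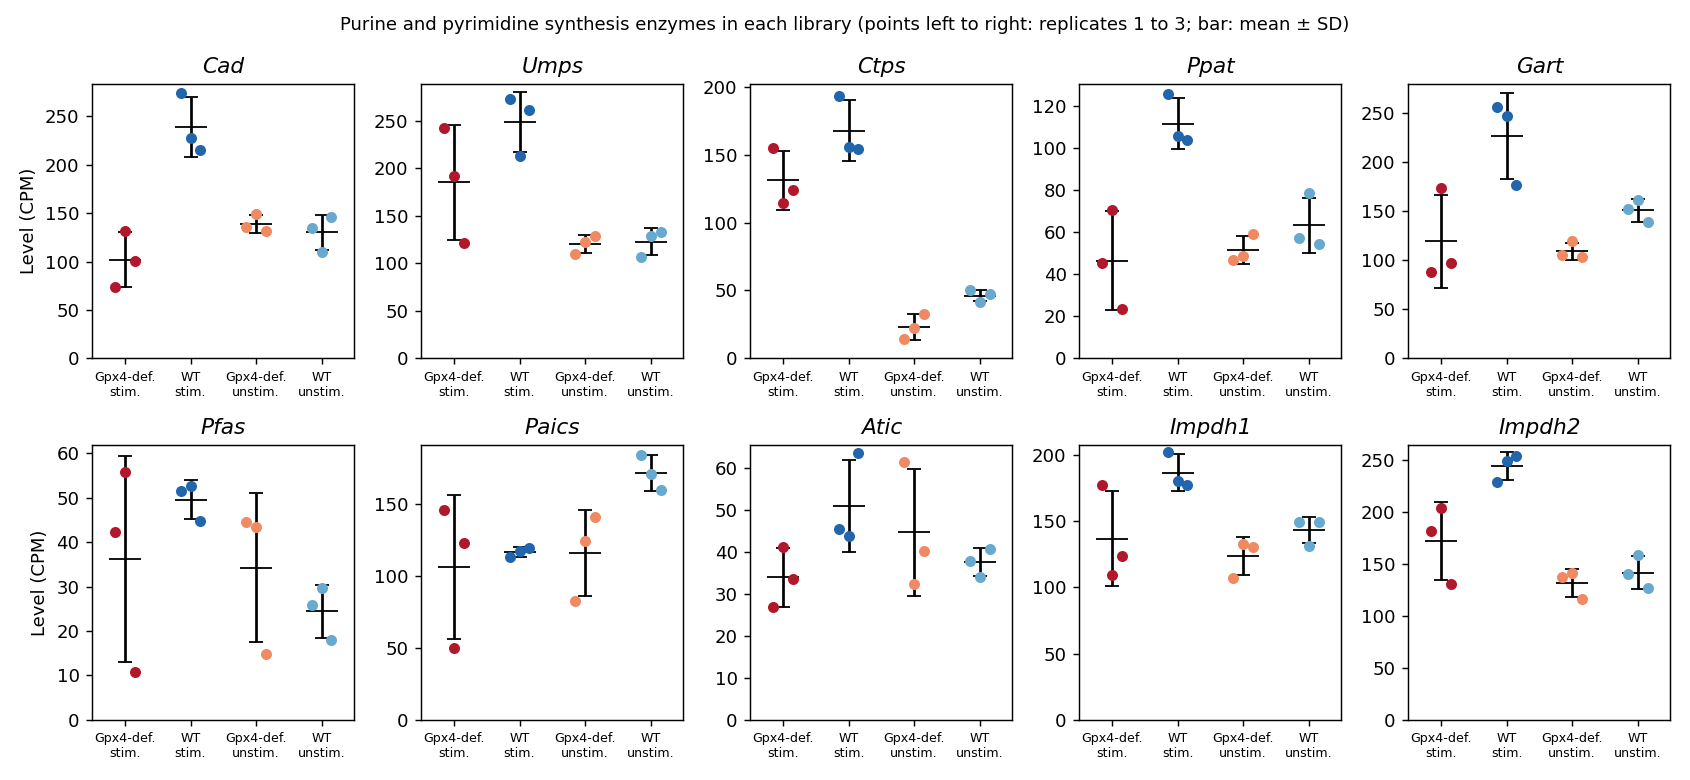
Level of each enzyme in CPM (y axis, from 0) in stimulated Gpx4-deficient, stimulated WT, unstimulated Gpx4-deficient and unstimulated WT libraries (x axis), with points for replicates 1 to 3 and bars for mean ± SD. In stimulated WT cells 9 of the 10 enzymes lie above all unstimulated WT libraries, and Paics lies below them.

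Cad encodes the enzyme of the first pyrimidine steps and lies on chromosome 5 (GRCm38, 31054780 to 31078479, plus strand). Its level was 74.03, 131.5 and 100.95 CPM in the 3 stimulated Gpx4-deficient libraries, against 273.9, 227.5 and 215 CPM in the stimulated WT ones. Without stimulation it was 135.6, 149.1 and 131.2 CPM in Gpx4-deficient and 134.8, 110.4 and 145.8 CPM in WT cells. All 3 stimulated Gpx4-deficient libraries lay below all stimulated WT ones, while the unstimulated groups overlapped. Cad was lower in stimulated Gpx4-deficient than in stimulated WT cells, with a log2 fold change of -1.23 (SE 0.21, edgeR adjusted p = 0.0111). In Gpx4-deficient cells its log2 fold change with stimulation was -0.44 (SE 0.20) and was not called (edgeR adjusted p = 0.17). In WT cells stimulation raised it by 0.87 on the log2 scale (SE 0.20, edgeR adjusted p = 0.0149). The stimulation response of Gpx4-deficient minus that of WT cells was -1.31 (SE 0.29), not called over all genes (edgeR adjusted p = 0.126, and between 0.00362 and 0.48 under the alternatives). The genotype call did not hold without stimulated WT replicate 1 (edgeR adjusted p = 0.068) or when only the 2 stimulated groups were fitted (0.164). The WT stimulation call did not hold without unstimulated WT replicates 1 or 2 (0.0584 and 0.0862) or stimulated WT replicate 1 (0.0719), and without stimulated Gpx4-deficient replicate 2 the difference between the responses was called (-1.53, 0.0173) and so was a fall with stimulation in Gpx4-deficient cells (-0.66, edgeR adjusted p = 0.0353).

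Umps, which completes UMP (chromosome 16, 33954782 to 33967038, minus strand), was at 241.98, 192.1 and 121.9 CPM in stimulated Gpx4-deficient and 272.5, 213.2 and 261.1 CPM in stimulated WT libraries. The unstimulated levels were 110, 123 and 128.5 CPM in Gpx4-deficient and 106.6, 128.3 and 133.3 CPM in WT cells. In Gpx4-deficient cells stimulated replicates 1 and 2 lay above every unstimulated library of that genotype and replicate 3 lay among them. The stimulated WT libraries all lay above the unstimulated WT ones. With stimulation Umps changed by 0.62 on the log2 scale in Gpx4-deficient cells (SE 0.22), not called by edgeR (adjusted p = 0.0787) but called without stimulated Gpx4-deficient replicate 3 (0.85, 0.0057) and by DESeq2 (0.0287). In WT cells it rose by 1.02 (SE 0.22, edgeR adjusted p = 0.0093), a call that did not hold without unstimulated WT replicate 1 (0.0566). The genotypes differed by -0.43 with stimulation (SE 0.22, edgeR adjusted p = 0.323) and by -0.03 without it (SE 0.22), neither called.

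Ctps, CTP synthase (chromosome 4, 120539868 to 120570276, minus strand), had the largest stimulation response of the 10 members in both genotypes. Stimulated libraries held 155.3, 114.1 and 123.9 CPM in Gpx4-deficient and 193.4, 155.9 and 154.2 CPM in WT cells. Unstimulated libraries held 13.9, 22.2 and 32.8 CPM in Gpx4-deficient and 50.01, 41.6 and 47.1 CPM in WT cells. Within each genotype the stimulated and unstimulated libraries were far apart, and without stimulation every Gpx4-deficient library was below every WT one. Ctps rose 5.71-fold in Gpx4-deficient cells (log2 2.51, SE 0.28, edgeR adjusted p = 9.85e-05) and 3.63-fold in WT cells (log2 1.86, SE 0.28, edgeR adjusted p = 0.000759), and both calls held under all 15 alternatives run for each. Between the genotypes the log2 fold change was -0.36 with stimulation (SE 0.27, edgeR adjusted p = 0.539) and -1.01 without it (SE 0.27, edgeR adjusted p = 0.387), neither called by edgeR, while DESeq2 called the unstimulated difference (-1.01, adjusted p = 0.0344). The difference between the responses was 0.65 (SE 0.38, edgeR adjusted p = 0.676). Summed over Cad, Umps and Ctps, the pyrimidine enzymes came to 418.6 ± 64.4 CPM in stimulated Gpx4-deficient and 655.6 ± 74.9 CPM in stimulated WT libraries, and to 282.1 ± 19.5 CPM and 299.3 ± 24 CPM in unstimulated Gpx4-deficient and WT libraries (SD, n = 3 each).

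**Figure D2:**
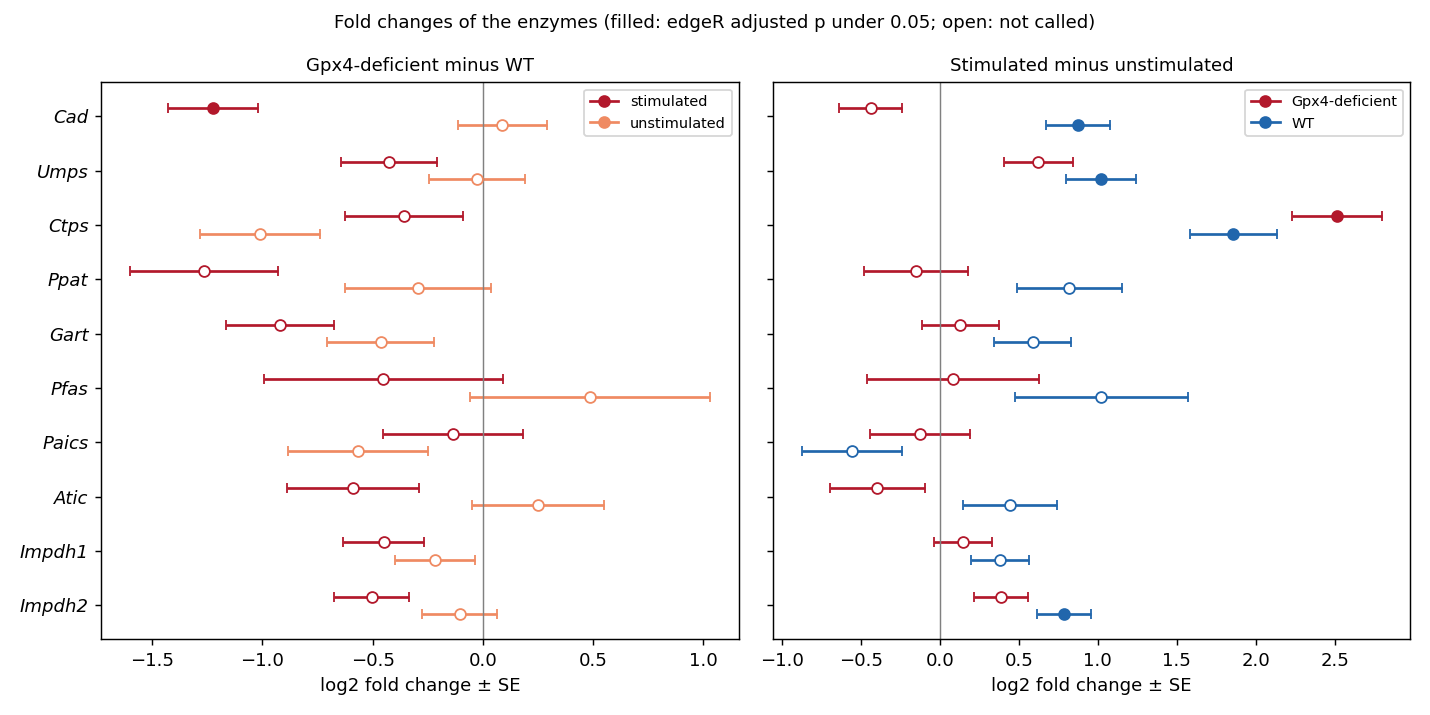
Log2 fold changes (x axis) of the 10 enzymes with bars of 1 SE, for Gpx4-deficient minus WT in each state (left) and stimulated minus unstimulated in each genotype (right); filled points passed the edgeR test. Cad at -1.23 is filled for stimulated cells on the left, and on the right 1 point, Ctps at 2.51, is filled for Gpx4-deficient cells and 4 for WT cells.

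Ppat, the amidotransferase of the first committed purine step (chromosome 5, 76913249 to 76951578, minus strand), was at 45.3, 70.6 and 23.4 CPM in stimulated Gpx4-deficient and 125.5, 105.7 and 103.7 CPM in stimulated WT libraries. Unstimulated cells held 46.7, 48.8 and 59.2 CPM in Gpx4-deficient and 57.2, 78.4 and 54.2 CPM in WT cells. The stimulated WT libraries stood above all other libraries. Its log2 fold change between the genotypes with stimulation was -1.27 (SE 0.34), the most negative of the 10 members, but it was not called by edgeR (adjusted p = 0.0793). DESeq2 (adjusted p = 0.00931), limma-voom (0.0338) and edgeR without stimulated Gpx4-deficient replicate 2 (0.0153) called it. With stimulation it changed by -0.15 in Gpx4-deficient cells (SE 0.33, edgeR adjusted p = 0.823) and by 0.82 in WT cells (SE 0.33, edgeR adjusted p = 0.159), neither called. A fit of the 2 WT groups alone called the WT change (edgeR adjusted p = 0.0134). Over all genes that fit called more than the fit of all 4 groups did, which also applies to its calls of members below.

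Gart carries several of the next steps (chromosome 16, 91621186 to 91646952, minus strand). Its level was 87.6, 173.8 and 96.9 CPM in stimulated Gpx4-deficient and 255.9, 246.4 and 176.1 CPM in stimulated WT libraries. Without stimulation it was 104.98, 119.1 and 103.5 CPM in Gpx4-deficient and 152.1, 161.3 and 138.3 CPM in WT libraries. In both states all Gpx4-deficient libraries lay below all WT ones. With stimulation the gap between the highest Gpx4-deficient and the lowest WT library was small. The log2 fold change between the genotypes was -0.92 with stimulation (SE 0.24, edgeR adjusted p = 0.0793) and -0.46 without it (SE 0.24, edgeR adjusted p = 0.92), not called by edgeR. For stimulated cells DESeq2 (0.0131), limma-voom (0.0455) and edgeR without stimulated Gpx4-deficient replicate 2 (-1.26, 0.00402) called it. With stimulation Gart changed by 0.13 in Gpx4-deficient cells (SE 0.24, edgeR adjusted p = 0.79), with a sign that turned when 1 of the 6 libraries was left out (-0.24 to 0.34 over the libraries left out in turn). In WT cells it changed by 0.59 (SE 0.24, edgeR adjusted p = 0.167), not called, although a fit of the 2 WT groups alone called it (0.58, edgeR adjusted p = 0.0288). An antisense gene, Gm15964, overlaps 19.7% of the exonic bases of Gart, and adding its counts to Gart gave -0.84 with stimulation (edgeR adjusted p = 0.0934).

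Pfas and Atic had the lowest levels per length among the members in unstimulated WT cells. Pfas, the amidating enzyme that follows GART (chromosome 11, 68985697 to 69008460, minus strand), was at 42.2, 55.9 and 10.7 CPM in stimulated Gpx4-deficient and 51.5, 52.7 and 44.7 CPM in stimulated WT libraries. Its unstimulated levels were 44.6, 43.3 and 14.9 CPM in Gpx4-deficient and 25.8, 29.6 and 17.95 CPM in WT libraries. In each state replicate 3 of the Gpx4-deficient cells was far below the other two, and the genotypes overlapped. With stimulation Pfas changed by 0.08 in Gpx4-deficient cells (SE 0.54, edgeR adjusted p = 0.946) and by 1.02 in WT cells (SE 0.55, edgeR adjusted p = 0.304), neither called, although a fit of the 2 WT groups alone called the WT change (edgeR adjusted p = 0.0171). Atic, which completes IMP (chromosome 1, 71557150 to 71579631, plus strand), was at 26.9, 41.1 and 33.6 CPM in stimulated Gpx4-deficient and 45.4, 43.8 and 63.6 CPM in stimulated WT libraries. Those groups did not overlap, and the log2 fold change was -0.59 (SE 0.30, edgeR adjusted p = 0.32). Unstimulated Atic levels were 61.3, 32.4 and 40.1 CPM in Gpx4-deficient and 37.8, 33.98 and 40.7 CPM in WT cells, and these overlapped. Stimulation changed Atic by -0.40 in Gpx4-deficient cells (SE 0.30, edgeR adjusted p = 0.422) and by 0.44 in WT cells (SE 0.30, edgeR adjusted p = 0.446), neither called.

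Paics, whose enzyme works between PFAS and ADSL (chromosome 5, 76951307 to 76967509, plus strand), was the 1 member with a negative log2 fold change with stimulation in WT cells. It was at 145.4, 49.998 and 122.9 CPM in stimulated Gpx4-deficient and 112.8, 117.2 and 119.1 CPM in stimulated WT libraries. Unstimulated libraries had 82.7, 123.8 and 140.6 CPM in Gpx4-deficient and 183.9, 170.3 and 159.3 CPM in WT libraries. Stimulated Gpx4-deficient replicate 2 was far below replicates 1 and 3, whereas the stimulated WT libraries were close together and all below the unstimulated WT ones. The log2 fold change with stimulation was -0.12 in Gpx4-deficient cells (SE 0.32, edgeR adjusted p = 0.852). In WT cells it was -0.56 (SE 0.32, edgeR adjusted p = 0.342), not called, although a fit of the 2 WT groups alone called it (-0.56, edgeR adjusted p = 0.00747). Between the genotypes it was -0.13 with stimulation (SE 0.32, edgeR adjusted p = 0.888) and -0.57 without it (SE 0.32, edgeR adjusted p = 0.966).

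Paics and Ppat are annotated head to head, and their transcribed ends overlap by 272 bases on opposite strands, which is 8.67% of the exonic bases of Paics and 6.15% of those of Ppat. The library kit keeps the strand, but no source used here says whether the counting did. The ratio of Paics to Ppat CPM within a library was 3.21, 0.709 and 5.25 in stimulated Gpx4-deficient and 0.899, 1.11 and 1.15 in stimulated WT libraries. It was 1.77, 2.53 and 2.37 in unstimulated Gpx4-deficient and 3.22, 2.17 and 2.94 in unstimulated WT libraries. The stimulated Gpx4-deficient ratios thus ranged from below to above those of all other libraries, while in WT cells every stimulated ratio was below every unstimulated one. The plot of this pair shows that both genes contribute to that range: Paics was lowest in replicate 2 and Ppat in replicate 3.

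**Figure D3:**
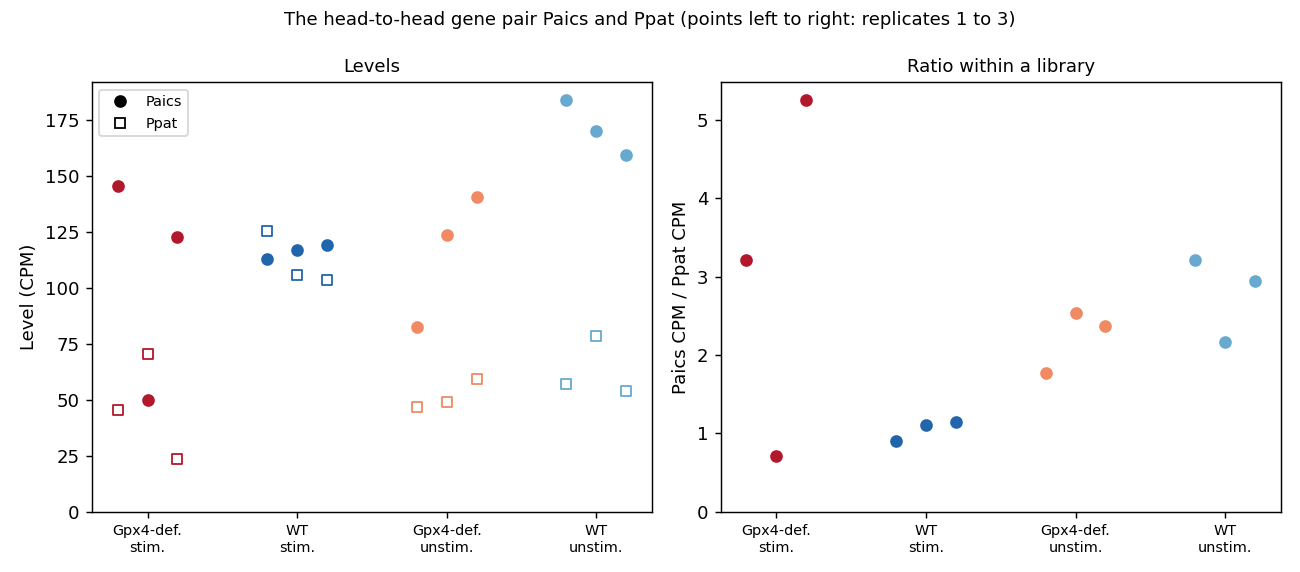
Levels of Paics (filled circles) and Ppat (open squares) in CPM (left) and their ratio within each library (right) in the 4 groups, with replicates 1 to 3 from left to right in each group. The ratio lies between 0.709 and 5.25 in stimulated Gpx4-deficient libraries and between 0.899 and 1.15 in stimulated WT ones.

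The 2 IMP dehydrogenases had the smallest SEs of the members. Impdh1 (chromosome 6, 29200434 to 29216364, minus strand) was at 177.1, 109.1 and 123.5 CPM in stimulated Gpx4-deficient and 202.2, 180.2 and 177.2 CPM in stimulated WT libraries. Without stimulation it was at 106.95, 132.9 and 130.1 CPM in Gpx4-deficient and 149.0, 131.5 and 149.1 CPM in WT libraries. The stimulated genotypes did not overlap, but replicate 1 of the Gpx4-deficient cells came within 1 CPM of the lowest WT library. The log2 fold change was -0.45 (SE 0.18, edgeR adjusted p = 0.223), called only without that library among the alternatives run (-0.63, edgeR adjusted p = 0.0423). Stimulation changed Impdh1 by 0.15 in Gpx4-deficient cells (SE 0.18, edgeR adjusted p = 0.662) and by 0.38 in WT cells (SE 0.18, edgeR adjusted p = 0.239), neither called, although a fit of the 2 WT groups alone called the WT change (0.38, edgeR adjusted p = 0.0384).

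Impdh2, the isoform known to be raised in dividing lymphocytes (chromosome 9, 108560286 to 108565584, plus strand), was at 182.1, 203.6 and 130.9 CPM in stimulated Gpx4-deficient and 228.9, 249.5 and 253.8 CPM in stimulated WT libraries. In unstimulated libraries it was at 137.8, 141.2 and 116.7 CPM in Gpx4-deficient and 140.3, 158.2 and 126.8 CPM in WT libraries. The stimulated Gpx4-deficient libraries all lay below the stimulated WT ones, and replicates 1 and 2, but not 3, lay above all unstimulated libraries. In Gpx4-deficient cells Impdh2 changed by 0.38 on the log2 scale with stimulation (SE 0.17, edgeR adjusted p = 0.156), and the change was called without stimulated Gpx4-deficient replicate 3 (0.55, 0.027). In WT cells it rose by 0.78 (SE 0.17, edgeR adjusted p = 0.0101). The WT call did not hold without unstimulated WT replicates 1 or 3 (0.0589 and 0.0701) or stimulated WT replicates 2 or 3 (0.0552 and 0.0561). The genotypes differed by -0.50 with stimulation (SE 0.17, edgeR adjusted p = 0.157), not called. A pseudogene, Impdh2-ps, matches 83.2% of the Impdh2 transcript at 95% identity or more, and adding its counts moved this value to -0.51 (edgeR adjusted p = 0.151).

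Set per kb of the principal transcript, the order of the members was much alike in the 4 groups, with Impdh2 highest and Pfas lowest in each. In stimulated libraries Impdh2 stood at 92.7 ± 20.1 CPM per kb in Gpx4-deficient and 131.4 ± 7.18 CPM per kb in WT cells, and Pfas at 5.69 ± 3.64 and 7.79 ± 0.673 CPM per kb (SD, n = 3 each). In stimulated WT cells Impdh2 was above all other members, and the next ones, Impdh1 (71.8 ± 5.25 CPM per kb), Umps (71.5 ± 9.04), Gart (64.3 ± 12.4) and Ctps (62.0 ± 8.18), did not differ beyond their spread. Ctps changed its place most, at rank 4 in stimulated Gpx4-deficient and 5 in stimulated WT libraries, and at rank 9 in unstimulated Gpx4-deficient and 7 in unstimulated WT libraries. Paics took rank 5 in stimulated Gpx4-deficient and 6 in stimulated WT libraries, and rank 3 and 2 in the unstimulated ones.

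The 3 stimulated Gpx4-deficient libraries were low in different enzymes. Replicate 1 was the lowest of them for Cad, Gart and Atic, replicate 2 for Paics, Impdh1 and Ctps, and replicate 3 for Umps, Ppat, Pfas and Impdh2. Replicates 1, 2 and 3 were below all 3 stimulated WT libraries for 7, 9 and 9 of the 10 members. Relative to the stimulated WT mean, Cad ran from 31.0% to 55.1%, Ppat from 20.9% to 63.2%, and Paics from 43.0% to 125%. The members' SD of log2 CPM between stimulated Gpx4-deficient libraries had a median of 0.459, against 0.167 between stimulated WT libraries. The same medians over all tested genes were 0.682 and 0.386, so the wider spread was not particular to these enzymes. Of the 10 members 6 did not overlap between the stimulated genotypes, all lower in Gpx4-deficient cells, where 11.9% of all tested genes were separated in that direction and 8.29% in the other. Between the unstimulated genotypes 3 members, Ctps, Gart and Paics, were separated, all lower in Gpx4-deficient cells, where 9.89% of all tested genes were lower and 8.42% higher (18.3% in all).

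**Figure D4:**
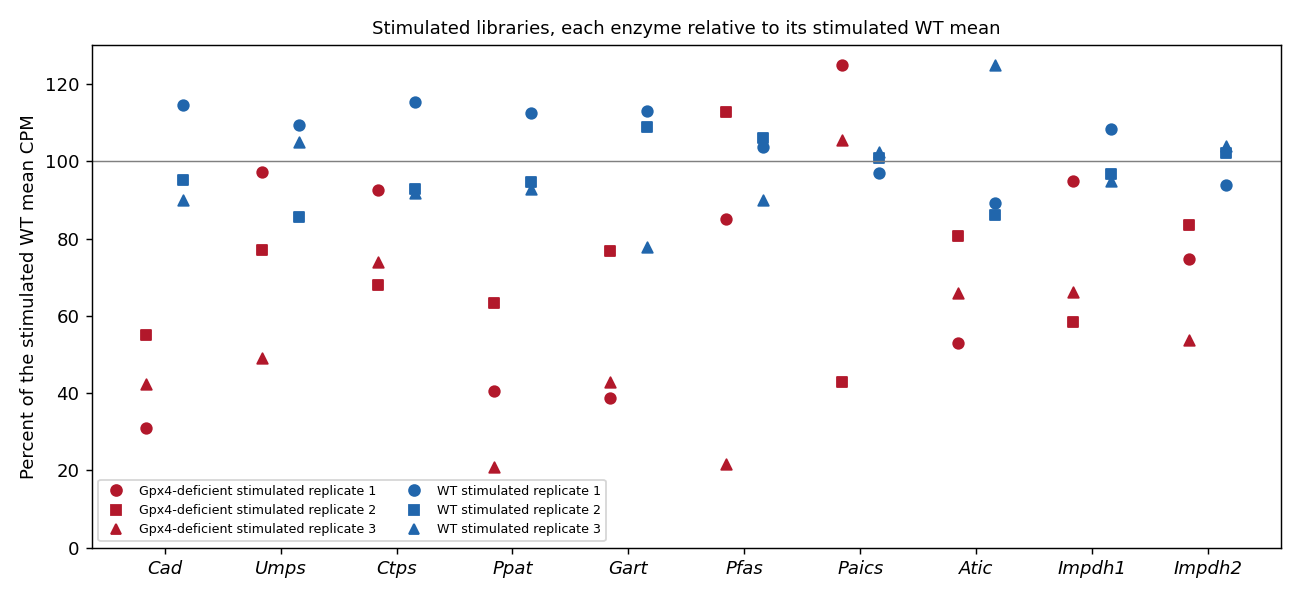
Level of each enzyme in the stimulated libraries as a percent of its stimulated WT mean (y axis, from 0), with circles, squares and triangles for replicates 1, 2 and 3 of Gpx4-deficient (red) and WT (blue) cells. Cad lies between 31.0% and 55.1% in Gpx4-deficient libraries, and the 3 libraries change their order from enzyme to enzyme.

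Summed over all 10 members, the level was 1178, 1142 and 888.5 CPM in stimulated Gpx4-deficient and 1762, 1592 and 1569 CPM in stimulated WT libraries. Without stimulation it was 844.6, 935.7 and 897.5 CPM in Gpx4-deficient and 1037, 1043 and 1012 CPM in WT libraries. In both states the Gpx4-deficient sums lay below the WT sums. Other measures differed between the genotypes in stimulated cells, and their part in these results was not tested. Beside the marker counts below, 20.1% of all tested genes did not overlap between the stimulated genotypes and 18.3% between the unstimulated ones. The mitochondrial share of counts was 3.19 ± 0.467% in stimulated Gpx4-deficient and 1.27 ± 0.097% in stimulated WT libraries (SD, n = 3 each). With mitochondrially encoded genes left out of the fit the same number of members, 1, was called. Leaving them out changes only the genes counted and the scaling, and what the share reflects was not tested. Between 13981 and 14917 genes were detected in stimulated Gpx4-deficient libraries, against 15217 to 15988 in stimulated WT ones. The summed level of the 6 regulatory T cell markers was 5451 to 6266 CPM in stimulated Gpx4-deficient and 4515 to 4946 CPM in stimulated WT libraries, with 3 of 6 not overlapping, all higher in Gpx4-deficient cells, and none at 0 counts. Among them Ikzf2 was called (log2 0.61, SE 0.11, edgeR adjusted p = 0.0203). Summed, the 4 monocyte and macrophage markers came to 60.2 to 69.3 CPM in stimulated Gpx4-deficient and 23.0 to 56.9 CPM in stimulated WT libraries. Of the 4, 0 did not overlap, and 0 were at 0 counts in all 3 libraries of either group. Single libraries were at 0, with Cd14 at 0, 288 and 868 counts in stimulated Gpx4-deficient libraries. Adgre1 had 55, 541 and 0 counts there and 0, 1 and 46 in stimulated WT libraries. Erythroid markers came to 25.04 to 26.4 CPM in stimulated Gpx4-deficient and 5.01 to 12.98 CPM in stimulated WT libraries, with 1 of 4 not overlapping. Stromal and epithelial markers came to 52.2 to 93.8 CPM in stimulated Gpx4-deficient and 91.95 to 105.5 CPM in stimulated WT libraries, with 1 of 3 not overlapping and Col1a1 at 0 counts in the stimulated Gpx4-deficient libraries. Between unstimulated genotypes neutrophil markers came to 0.346 to 6.38 CPM in Gpx4-deficient and 32.4 to 98.3 CPM in WT libraries, with 6 of 6 lower. None was at 0 counts in all 3 libraries of a group. In single unstimulated Gpx4-deficient libraries some were, with Camp at 0, 0 and 3 counts and Elane at 1, 0 and 0. Erythroid markers came to 15.1 to 20.6 CPM in unstimulated Gpx4-deficient and 24.2 to 38.2 CPM in unstimulated WT libraries, with 2 of 4 lower. Stromal and epithelial markers came to 178.3 to 210.5 CPM in unstimulated Gpx4-deficient and 173.9 to 193 CPM in unstimulated WT libraries, with 1 of 3 lower. The mitochondrial share was 1.72% to 1.94% in unstimulated Gpx4-deficient and 1.21% to 1.39% in unstimulated WT libraries. The part of these measures in the lower unstimulated sums was not tested.

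Such markers also differed between stimulated and unstimulated libraries. For scale, 12.9% of all tested genes were separated higher and 16.9% lower in stimulated Gpx4-deficient libraries, and 19.8% and 22.1% in stimulated WT ones. In Gpx4-deficient cells monocyte and macrophage markers came to 60.2 to 69.3 CPM with and 105.2 to 147.2 CPM without stimulation, and 1 of 4 was separated. In WT cells they came to 23.0 to 56.9 CPM with and 132 to 225.1 CPM without it, and 2 of 4 were separated. Erythroid markers came to 25.04 to 26.4 CPM with and 15.1 to 20.6 CPM without stimulation in Gpx4-deficient cells (1 of 4 separated, higher with stimulation), and to 5.01 to 12.98 CPM with and 24.2 to 38.2 CPM without it in WT cells (2 of 4 separated, lower). Stromal and epithelial markers came to 52.2 to 93.8 CPM with and 178.3 to 210.5 CPM without stimulation in Gpx4-deficient cells, and to 91.95 to 105.5 CPM with and 173.9 to 193 CPM without it in WT cells, with 1 of 3 lower in each genotype. That marker, Pecam1, was at 50.6 ± 16.2 CPM with and 179.4 ± 15.5 CPM without stimulation in Gpx4-deficient cells (log2 -1.83, SE 0.21, edgeR adjusted p = 9.85e-05). Its WT levels were 78.9 ± 0.396 CPM with and 160.9 ± 11.5 CPM without stimulation (-1.03, SE 0.20, edgeR adjusted p = 0.00517, SD, n = 3 each). Pecam1 made up most of these stromal and epithelial sums, and which cells it came from was not tested. In Gpx4-deficient cells 1 of 4 B cell markers and 1 of 4 CD8 and NK cell markers were lower with stimulation, and in WT cells 0 and 1 were. The B cell marker Pax5 was at 0 counts in every group but stimulated WT cells, the NK cell marker Ncr1 in stimulated Gpx4-deficient cells, and Cd8a in stimulated WT and unstimulated Gpx4-deficient cells. Of the 6 regulatory T cell markers 4 lay higher and 2 lower with stimulation in each genotype. The part of these markers in the stimulation results was not tested. In Gpx4-deficient cells 1 member, Ctps, lay higher in every stimulated library than in every unstimulated one and 0 lay lower, where 12.9% and 16.9% of all tested genes were so separated (29.8% in all). In WT cells 9 members lay higher and 1, Paics, lower, where 19.8% and 22.1% of all tested genes did (42% in all).

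Other de novo enzymes were mixed. Of the 10 listed, all tested, 2 rose and 2 fell with stimulation in Gpx4-deficient cells (7.45% and 7.83% of all tested genes did), and 2 rose and 1 fell in WT cells (6.12% and 5.41%). Between the genotypes 0 were called in either state, where 2.27% of all tested genes were with stimulation and 0.0674% without it. Prps1, which makes phosphoribosyl pyrophosphate, rose to 176.9 ± 86.5 CPM in stimulated Gpx4-deficient cells, against 51.2 ± 18.02 CPM in unstimulated ones (log2 1.79, SE 0.35, edgeR adjusted p = 0.00447), and to 192 ± 28.1 CPM in stimulated WT cells, against 75.1 ± 9.59 CPM (1.35, SE 0.34, edgeR adjusted p = 0.0236). Adss, on the branch from IMP to AMP, rose by 1.33 in Gpx4-deficient (edgeR adjusted p = 0.00077) and by 0.90 in WT cells (edgeR adjusted p = 0.0101). Ctps2, the second CTP synthase, fell by 0.91 in Gpx4-deficient (edgeR adjusted p = 0.0432) and by 1.16 in WT cells (edgeR adjusted p = 0.0167), the opposite direction to Ctps. Prps2 fell in Gpx4-deficient cells (-2.74, SE 0.80, edgeR adjusted p = 0.0375), where its stimulated libraries held 356, 1058 and 24 counts. Dhodh, chosen after its values were seen, was at 2.08, 8.70 and 0.113 CPM in stimulated Gpx4-deficient and 40.99, 25.8 and 37.1 CPM in stimulated WT libraries. Every stimulated Gpx4-deficient library was thus below every stimulated WT one, but the log2 fold change of -3.25 (SE 0.97) was not called (edgeR adjusted p = 0.113).

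Of the genes for deoxynucleotide and kinase steps, 2 are described. With stimulation Tyms, thymidylate synthase, was at 36.7, 28.5 and 25.8 CPM in Gpx4-deficient libraries, against 48.3, 49.3 and 53.5 CPM without it, and at 39.2, 33.9 and 31.99 CPM in WT libraries, against 69.3, 75.8 and 59.7 CPM without it. The stimulated libraries lay below the unstimulated ones in both genotypes. Tyms fell by 0.73 on the log2 scale in Gpx4-deficient (edgeR adjusted p = 0.04996) and by 0.96 in WT cells (edgeR adjusted p = 0.0162). Rrm2, a ribonucleotide reductase subunit, changed by -0.34 in Gpx4-deficient cells (edgeR adjusted p = 0.444) and fell by 1.05 in WT cells (edgeR adjusted p = 0.0256), with no call for the difference (0.71, edgeR adjusted p = 0.636). Neither gene was called between the genotypes in either state.

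Of 12 tested salvage genes 0 were called between the genotypes in either state (2.27% of all tested genes were with stimulation and 0.0674% without it). With stimulation 2 salvage genes rose and 2 fell in Gpx4-deficient cells, where 7.45% of all tested genes rose and 7.83% fell, and 1 rose and 0 fell in WT cells, where 6.12% rose and 5.41% fell. Uck2, a uridine-cytidine kinase, rose by 0.96 in Gpx4-deficient (edgeR adjusted p = 0.00348) and by 1.11 in WT cells (edgeR adjusted p = 0.00135). Adk, adenosine kinase, rose in Gpx4-deficient cells (1.16, edgeR adjusted p = 0.00916), and Tk1, the thymidine kinase of dividing cells, fell there (-1.30, edgeR adjusted p = 0.027). Uprt also fell there, with 0, 1 and 0 counts in stimulated against 318, 2 and 61 counts in unstimulated libraries (edgeR adjusted p = 0.0163). The ratio of unstimulated to stimulated levels was 408.3, with an exact 95% counting interval of 72.9 to 16170, and 1 unstimulated library held most of those counts. Of 9 tested breakdown genes 1 was called between the stimulated genotypes, where 2.27% of all tested genes were, and 0 between the unstimulated ones, where 0.0674% were. With stimulation 2 rose and 1 fell in Gpx4-deficient cells, where 7.45% and 7.83% of all tested genes did, and 0 were called in WT cells, where 11.5% were, with 2 at an unadjusted p under 0.05. The gene called between the stimulated genotypes, Samhd1, which hydrolyses deoxynucleotides, was at 1151, 1262 and 1451 CPM in Gpx4-deficient and 884.9, 838.4 and 924.9 CPM in WT libraries (log2 0.55, SE 0.12, edgeR adjusted p = 0.0328). Samhd1 also rose with stimulation in Gpx4-deficient cells (0.74, edgeR adjusted p = 0.00107), as did Nt5e, the ecto-enzyme CD73 (0.74, edgeR adjusted p = 0.0374), while Xdh, which makes uric acid, fell (-1.47, edgeR adjusted p = 0.00365).

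Of 7 listed regulators 0 were called between the genotypes in either state, where 2.27% of all tested genes were with stimulation and 0.0674% without it. Myc was at 1331, 1096 and 1232 CPM in stimulated Gpx4-deficient and 1161, 1240 and 1338 CPM in stimulated WT libraries, against 217.6 to 274.1 CPM and 243.5 to 264.5 CPM in the unstimulated ones. Its levels overlapped between the genotypes in both states. Myc rose by 2.32 on the log2 scale in Gpx4-deficient (SE 0.11, edgeR adjusted p = 1.41e-07) and by 2.31 in WT cells (SE 0.11, edgeR adjusted p = 1.22e-07). Atf4, a transcription factor of amino acid and one-carbon metabolism, rose by 0.62 in Gpx4-deficient (edgeR adjusted p = 0.0134) and by 1.35 in WT cells (edgeR adjusted p = 7.71e-05), and its stimulated levels were 182.9 to 246.3 CPM and 259.1 to 295.8 CPM. The difference between the Atf4 responses was -0.73 and was not called (edgeR adjusted p = 0.313). Mtor changed by 0.42 in Gpx4-deficient cells (edgeR adjusted p = 0.285) and rose by 0.87 in WT cells (edgeR adjusted p = 0.0441), with no call for the difference (-0.45, edgeR adjusted p = 0.791).

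Likeness to the members was measured as the root mean square difference between a gene's centred log2 CPM and the members' mean centred log2 CPM over the 12 libraries. The 5 nearest other genes were Rrp7a, which works in ribosome biogenesis (0.128), Cct5, a subunit of the TRiC chaperonin (0.132), Phb2, a prohibitin of mitochondria (0.134), Actg1, cytoplasmic actin (0.138), and Api5 (0.143), where the median over all tested genes was 1.02. Among the members themselves Impdh2 was nearest to that mean (0.135), and Paics (0.648) and Ctps (0.977) were farthest. Rrp7a averaged 77.8 ± 17.6 CPM in stimulated Gpx4-deficient and 139.6 ± 15.2 CPM in stimulated WT libraries, and 61.4 ± 3.52 CPM and 81.1 ± 6.46 CPM in unstimulated Gpx4-deficient and WT libraries (SD, n = 3 each). Cct5 averaged 471.7 ± 67.7 CPM in stimulated Gpx4-deficient and 785.4 ± 39.95 CPM in stimulated WT libraries, and 404.8 ± 69.01 CPM and 514.2 ± 7.31 CPM in unstimulated Gpx4-deficient and WT libraries. These genes were chosen for this pattern, so their levels are a description with no test.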

How the data were processed

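RNA (600 ng per sample, stranded mRNA kit) was sequenced from 12 libraries, 3 per group, per the labels' protocols. The authors deposited gene-level expected counts, estimated by RSEM per the name of the deposited table, on GRCm38 per the submitters' processing notes. No source used here gives the aligner, annotation, strand setting or versions. Expected counts need not be whole, and were rounded. Every column was matched to 1 sample by its library identifier.

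edgeR 4.0.16 in R 4.3.3 was run with TMM scaling, filterByExpr and robust quasi-likelihood fits of 4 group means over all libraries, with 8 residual degrees of freedom. SEs are the absolute log2 fold change over the square root of F. The comparisons were the genotypes in each state, stimulation in each genotype, and the difference between the 2 stimulation responses. Alternatives were DESeq2 1.42.0, limma-voom (limma 3.58.1), other scaling, filters, sample sets and blocks, and each library left out. In simulated data with 14239 genes the stimulated genotype comparison recovered 23 of 100 genes with a 2-fold change, and absence of a call is therefore no sign of equal levels.

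The members and lists were chosen with earlier results of these data known. Named were all members, Gpx4, Foxp3, up to 6 called genes per list and comparison, and the 5 genes of most alike profile. Cda and Dpyd were not found by symbol among the genes of the deposited table, and Gda did not pass the filter. Some genes of the deoxynucleotide and kinase list are not reported here. Gene coordinates and transcript lengths come from GENCODE M21 (GRCm38), promoter sequences from RefSeq (GRCm38.p6), and shared transcript sequence from blastn 2.17.0.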

Additional observations from a re-analysis of the deposited data

How the results depend on the processing

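With DESeq2 the number of called members became 1 between unstimulated genotypes, 3 between stimulated ones, 2 for stimulation in Gpx4-deficient cells and 1 for the difference between the responses, and over all genes the counts were 183, 1564, 3609 and 380, with 2639 for stimulation in WT cells. With limma-voom 3 members were called between stimulated genotypes. Its count over all genes there is not reported here, so these 3 cannot be set against a share over all genes. For the other comparisons limma-voom called 21 of all genes between unstimulated genotypes and 0 for the difference between the responses. It also moved the median log2 fold change of all genes between stimulated genotypes to -0.21, against which Ppat was at -1.35 and Gart at -0.94. Fitting only the groups compared gave 0 members and 22 genes between stimulated genotypes, 1022 genes for stimulation in Gpx4-deficient cells, and 9 members (8 higher, 1 lower) and 3499 genes for stimulation in WT cells. The fit of all 4 groups called 1709 genes for stimulation in WT cells. How many of the 3499 genes were higher or lower is not reported here. With the replicate number as a block the counts over all genes were 3 between unstimulated and 171 between stimulated genotypes and 5 for the difference between the responses (0 with a block within genotype), and no count of called members changed. Deviations of same-numbered libraries from their group means correlated at -0.024 to 0.03 over 12 pairs. The labels do not say what the numbers mean, and these correlations cannot decide whether same-numbered libraries came from 1 mouse. DESeq2-type scaling, no filter and leaving out mitochondrial genes kept every count within 1.5 times of the edgeR result given in the report. The main counts over all genes were 337, 10, 2266, 1709 and 30 for the stimulated genotypes, unstimulated genotypes, stimulation in Gpx4-deficient cells, stimulation in WT cells and the difference between the responses.

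Without 1 library at a time, called members ranged from 0 to 3 between stimulated genotypes (0 without stimulated WT replicate 1, 2 without stimulated Gpx4-deficient replicate 1, 3 without its replicate 2), from 1 to 3 for stimulation in Gpx4-deficient cells (2 without stimulated Gpx4-deficient replicate 2, 3 without replicate 3) and in WT cells (1 without unstimulated WT replicate 1), and from 0 to 1 for the difference between the responses. Over all genes they ranged from 3 to 14 between unstimulated genotypes (3 without WT replicate 1 or 2, 5 without Gpx4-deficient replicate 2), from 117 to 658 between stimulated ones (117, 158 and 164 without WT replicates 1, 2 and 3, 658 and 625 without Gpx4-deficient replicates 1 and 2) and from 2 to 167 for the difference between the responses. Signs that turned belonged to changes that were not called. They were those of Umps (-0.102 to 0.075), Atic (-0.032 to 0.461) and Impdh2 (-0.138 to 0.017) between unstimulated genotypes, Paics between stimulated ones (-0.394 to 0.24), and Ppat (-0.572 to 0.165), Gart (-0.237 to 0.339), Paics (-0.407 to 0.226), Pfas (-0.363 to 0.515) and Impdh1 (-0.063 to 0.297) for stimulation in Gpx4-deficient cells. Pfas there was also -0.06 with the replicate block within genotype. The causes were not tested. Partner counts added to Gart, Umps and Impdh2, an alternative chosen after seeing the data, changed no member's call.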

Other observations

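Gm15964, the antisense gene that overlaps Gart, had 1.04, 21.2 and 633.1 expected counts in stimulated Gpx4-deficient and 35.5, 107.9 and 1.02 in stimulated WT libraries. It had 137.2, 175.4 and 64.9 in unstimulated Gpx4-deficient and 50.7, 58.2 and 40.6 in unstimulated WT libraries. The highest value was thus in stimulated Gpx4-deficient replicate 3, whose Gart level was 96.9 CPM.

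Upp1, uridine phosphorylase, was at 0 counts in all 6 unstimulated libraries. With stimulation it had 1, 140 and 291 counts in the Gpx4-deficient libraries and 63, 0 and 0 counts in the WT libraries. Upp1 was chosen after its values were seen. With counts pooled within each group and the 0 counts set to 3, the ratio of stimulated to unstimulated Gpx4-deficient levels was at least 134.4. This bound covers counting only and does not hold for stimulated replicate 1, which had 1 count. The change was not called (edgeR adjusted p = 0.118).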
